A study of Mus musculus with 20 samples.

Results

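Open chromatin was followed at 7 genes of sebaceous lipid metabolism, Scd1, Elovl4, Plin2, Pparg, Acsbg1, Fasn and Abhd5, in epidermal cells of the mouse tail. A peak was counted with a gene when its summit lay inside the gene's mm10 span or within 50 kb of an end. This gave 123 accessible sites of the 101406 sites in the whole series, built from 1150 deposited peaks. A site is a stretch of genome where overlapping peaks of any of the lists were joined. The assay was ATAC-seq, which uses Tn5 transposase to tag DNA that is not packed into closed chromatin.

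The mice carried Lrig1CreER and Rosa-TdTomato in every group, so a red fluorescent protein can mark cells that express Lrig1, a gene of the upper hair follicle, and their descendants once Cre is activated. Cells labelled Lrig1 GL and positive for the surface protein Sca1 were sorted from tail epidermis. Whether sebaceous gland cells were among them was not tested. Of the 10 groups, 4 formed a wound course: homeostasis, 1 week after the first wound, 8 weeks after the first wound, and 1 week after the second wound. The other groups were epidermis that was wounded and given UVB, given UVB, given PRT4165 (an inhibitor of the histone H2A ubiquitin ligase of Polycomb repressive complex PRC1) or given vehicle, and cells cultured from a distal memory region or from a control, non-memory region, with 8 weeks after the first wound in their names. The labels give neither age nor sex, and no doses, UVB timing or length of culture. The 20 libraries form 2 per group, and each group has a single deposited peak list made from both. Without a list per library, values carry no replicate error and differences between groups could not be tested.

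Sebaceous glands sit on the upper hair follicle, and their cells fill with lipid droplets and burst to release sebum onto the skin. Fatty acids are built by synthases, activated with coenzyme A, and desaturated and elongated before they are esterified into waxes and triglycerides and stored in coated droplets. The nuclear receptor PPARγ, encoded by Pparg, drives the lipid programme of sebocytes and of fat cells, and mice that lack Scd1 have stunted sebaceous glands.

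The start regions of 6 of the genes could be read, and they are shown because the genes differ in whether the start was accessible. Each sequence runs 5′ to 3′ on the gene's own strand and comes from RefSeq, build GRCm38.p6, the assembly of mm10. The first 250 bases lie before the annotated start and the last 50 after it. Capitals mark matches on either strand to 3 of the 7 motifs searched, the E-box CACGTG, the CCAAT box and the Sp motif GGGCGG. The windows are chr11:120824498-120824797 for Fasn, chr9:122351366-122351665 for Abhd5, chr4:86670010-86670309 for Plin2, chr9:83806256-83806555 for Elovl4, chr6:115360894-115361193 for the first of 3 Pparg starts, and chr9:54661836-54662135 for Acsbg1. Abhd5 and Pparg are on the plus strand and the others on the minus strand. A region covered the starts of Fasn, Abhd5 and Plin2 in 10 lists, that of Elovl4 in 6, the first Pparg start in 2 and the Acsbg1 start in 0.
Fasn: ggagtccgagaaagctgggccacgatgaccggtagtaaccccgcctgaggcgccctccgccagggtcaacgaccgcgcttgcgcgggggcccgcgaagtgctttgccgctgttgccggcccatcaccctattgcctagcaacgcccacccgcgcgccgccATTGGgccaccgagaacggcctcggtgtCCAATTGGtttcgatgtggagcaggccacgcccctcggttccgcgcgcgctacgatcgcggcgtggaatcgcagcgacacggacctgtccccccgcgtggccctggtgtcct
Abhd5: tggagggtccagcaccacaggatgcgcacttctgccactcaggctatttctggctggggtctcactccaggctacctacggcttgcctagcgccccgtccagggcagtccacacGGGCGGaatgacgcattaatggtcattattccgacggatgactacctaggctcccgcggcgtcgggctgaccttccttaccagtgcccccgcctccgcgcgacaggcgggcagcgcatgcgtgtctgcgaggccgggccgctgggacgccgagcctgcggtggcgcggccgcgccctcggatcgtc
Plin2: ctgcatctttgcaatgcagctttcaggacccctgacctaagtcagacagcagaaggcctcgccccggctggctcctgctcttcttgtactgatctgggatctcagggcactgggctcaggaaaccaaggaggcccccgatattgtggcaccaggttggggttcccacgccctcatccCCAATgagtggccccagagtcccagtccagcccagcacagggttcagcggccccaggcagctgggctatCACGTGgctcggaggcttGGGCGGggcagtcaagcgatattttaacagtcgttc
Elovl4: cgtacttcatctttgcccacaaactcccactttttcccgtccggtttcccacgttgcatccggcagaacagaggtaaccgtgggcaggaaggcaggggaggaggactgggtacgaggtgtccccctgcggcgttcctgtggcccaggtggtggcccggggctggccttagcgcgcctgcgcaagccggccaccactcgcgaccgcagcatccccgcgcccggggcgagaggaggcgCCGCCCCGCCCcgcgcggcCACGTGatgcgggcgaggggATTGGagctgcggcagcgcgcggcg
Pparg: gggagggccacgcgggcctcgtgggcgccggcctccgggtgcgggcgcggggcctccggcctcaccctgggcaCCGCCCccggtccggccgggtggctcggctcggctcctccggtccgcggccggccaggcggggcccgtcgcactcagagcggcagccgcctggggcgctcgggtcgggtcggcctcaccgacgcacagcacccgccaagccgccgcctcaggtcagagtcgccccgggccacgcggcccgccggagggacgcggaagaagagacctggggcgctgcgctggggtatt
Acsbg1: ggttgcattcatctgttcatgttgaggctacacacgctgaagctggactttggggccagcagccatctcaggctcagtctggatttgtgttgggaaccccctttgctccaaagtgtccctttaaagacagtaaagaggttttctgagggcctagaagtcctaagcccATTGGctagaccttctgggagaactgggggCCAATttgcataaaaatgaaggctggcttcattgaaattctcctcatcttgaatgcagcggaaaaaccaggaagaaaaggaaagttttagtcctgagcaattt

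The Elovl4 and Plin2 windows each hold an E-box, found in 7.84% of the 21262 windows of the same length in the table. Elovl4 holds 1 CCAAT match and 2 overlapping GGGCGG matches, Plin2 holds 1 of each, Fasn holds 3 CCAAT matches of which 2 overlap, Acsbg1 holds 2 CCAAT matches, and Abhd5 and the first Pparg window hold 1 GGGCGG match each. CCAAT is in 38.2% of the windows and GGGCGG in 46.2%. No match was found in the 6 windows to the direct repeat known for PPAR and RXR, which is AGGTCA and again AGGTCA after a gap of 1 base (0.047% of windows), to the sterol response motif TCACNCCAC (1.19%), to the AP-1 motif TGANTCA (6.99%) or to TATAAA (12.6%). Of the other 2 Pparg windows, the second holds 1 TATAAA match and neither holds the repeat, the sterol response or the AP-1 motif. CpG dinucleotides separate the windows further: the first Pparg window has 44, Fasn 39, Elovl4 35, Abhd5 32, Plin2 10 and Acsbg1 2, against a median of 13. Windows covered in all 10 lists have a median of 23 CpGs and those covered in no list a median of 3. The first Pparg window thus lies at the 97.5th percentile of CpG count and was covered in 2 lists.

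The lists held 34644 (8 weeks after the first wound) to 73340 regions (UVB), where a region is a set of overlapping peaks of a list. The 4 longest were wound with UVB, UVB, PRT4165 and vehicle, with 66541 or more regions each. Their read depth is unknown. Within 1 kb of a gene end, regions lay at 4 to 6 of the 6 keratinocyte and sort markers in each list. Krt5, Krt14, Lrig1 and Ly6a (which encodes Sca1) had one in all 10, Krt79 in 6, and Trp63 in 1, the vehicle list. The adipocyte markers Adipoq, Cidec and Fabp4 had none in any list, while 1 to 3 of the 6 adipocyte markers did (Plin1 in 9 lists, Cfd in 9, Lep in 4). The T cell markers found, 4 in number, had none. Of the other lists, 1 to 3 of 5 fibroblast, 0 or 1 of 4 leukocyte, 0 or 1 of 3 endothelial and 0 to 2 of 3 melanocyte markers had a region, the leukocyte Csf1r and the endothelial Kdr in both cultured lists. The fibroblast Col1a1 had one in all 10 lists and the melanocyte Dct in 8, while Col1a2, Lum and Tyr had none in any list. Of all protein-coding genes, 47.9% (8 weeks) to 60.1% (UVB) had a region by this measure. These markers therefore do not settle which cell types were present. Regions at the Y-linked genes Ddx3y, Uty and Eif2s3y were present in 5 lists, the cultured pair, wound with UVB, and 1 week after either wound, and in none of the other 5. The part of the animals' sex in the differences below was not tested, and counts at equal list length stand beside those that they change.

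Fasn, Abhd5, Plin2 and Scd1 had an accessible site at the gene start, or for Scd1 at the high-coordinate end of its span, in all 10 lists, and Elovl4, Pparg and Acsbg1 did not. As background, 40.5% of the 21262 annotated starts were covered in all 10 lists and 41.1% in none, and the share per list was 46.9% at homeostasis, 50.9% at 1 week, 44.5% at 8 weeks and 47.4% after the second wound. It was 50.6% and 52.2% in the cultured distal memory and control lists, and 53.8%, 55.8%, 53.6% and 54.9% in the wound with UVB, UVB, PRT4165 and vehicle lists. The authors' signal value of a peak is its enrichment, and it is given here with its percentile, the share of regions of the same list with an equal or lower value. Values of different lists stand side by side, and their differences are not read as changes.

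Fasn encodes fatty acid synthase, which builds palmitate. Its start site, chr11:120823154-120824944, had signal values of 8.7 at homeostasis, 9.32 at 1 week, 9.74 at 8 weeks and 9.36 after the second wound. The values were 11.1 and 10.6 in the cultured distal memory and control lists, and 11.6, 11.9, 10.3 and 10.1 in the wound with UVB, UVB, PRT4165 and vehicle lists. They lay at percentiles of 46.7 to 64.0, near the middle of every list. Abhd5, whose product activates the triglyceride lipase Pnpla2, had signal values of 9.19 to 11.8 and percentiles of 49.7 to 69.7 at chr9:122351181-122352467.

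Plin2 encodes a coat protein of lipid droplets. Its start site, chr4:86669143-86670331, was in every list but ranked low, with signal values of 7.14 at homeostasis, 4.22 at 1 week, 5.64 at 8 weeks and 6.27 after the second wound. The cultured distal memory and control lists gave 3.72 and 4.41, and the wound with UVB, UVB, PRT4165 and vehicle lists 9.14, 6.12, 7.81 and 8.51. The percentile was lowest in the cultured distal memory list, at 1.01, and highest in the vehicle list, at 45.3.

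Scd1 encodes the stearoyl-CoA desaturase that puts the first double bond into saturated fatty acids. The site at its end, chr19:44407260-44408581, had signal values of 9.31 at homeostasis, 11.9 at 1 week, 8.73 at 8 weeks and 9.81 after the second wound. The cultured distal memory and control lists gave 13.3 and 13, and the wound with UVB, UVB, PRT4165 and vehicle lists 16.1, 14.9, 13.4 and 13.4. Its percentile was 74.4 or more in 7 lists and 53.0, 42.8 and 53.9 in the homeostasis, 8-week and second-wound lists.

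Elovl4 encodes an elongase of very-long-chain fatty acids, which the skin barrier needs. No region covered its start in the 4 lists of the wound course. The site chr9:83805479-83806778 had signal values of 8.57 and 8.91 in the cultured distal memory and control lists, and of 9.87, 8.03, 6.78 and 9.58 in the wound with UVB, UVB, PRT4165 and vehicle lists, at percentiles of 24.1 to 54.3. These 6 lists include the 4 longest. The cultured distal memory list, with 45714 regions, is shorter than the first-wound 1-week list, with 49078, which lacks the site. The part of list length and read depth in this pattern was not tested.

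Pparg has 3 annotated starts. The site over the first, chr6:115360768-115362533, was present in the cultured control list with a signal value of 9.47 (percentile 53.1) and in the vehicle list with 6.2 (percentile 22.0). Of the other 2 annotated starts, the second was covered in the vehicle list and the third, at chr6:115421816-115422115, in none. Acsbg1, which encodes an acyl-CoA synthetase of the bubblegum family that activates long fatty acids, had no region over its start in any list.

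**Figure D1:**
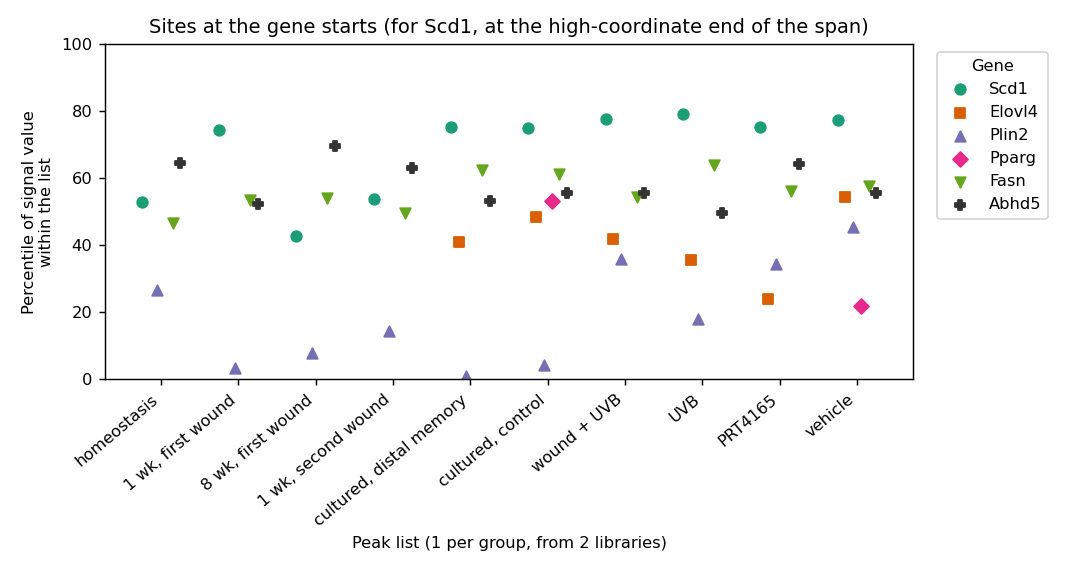
The vertical axis gives the percentile of the authors' signal value within a list (0 to 100), and the horizontal axis the 10 peak lists, with 1 marker per gene where a site was present at the start (for Scd1, at the high-coordinate end). Fasn and Abhd5 stay between 46.7 and 69.7, Plin2 lies below them in every list, Elovl4 has markers in 6 lists and Pparg in 2.

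The number of sites differed among the genes. Acsbg1 had 28, Plin2 22, Abhd5 19, Fasn 16, Scd1 and Elovl4 14 each, and Pparg 10. Per 100 kb of gene and flanks, this ran from 4.36 for Pparg, whose span is the longest at 130 kb, to 17.8 for Acsbg1. The site farthest inside the 50 kb limit lay 45.1 (Fasn) to 50 kb (Scd1) from the gene, and the nearest outside it 50.1 (Elovl4) to 56.3 kb (Fasn).

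In all, 48 sites were present at homeostasis, 60 at 1 week, 43 at 8 weeks and 50 after the second wound. The cultured distal memory and control lists held 57 and 64, and the wound with UVB, UVB, PRT4165 and vehicle lists 87, 100, 78 and 81. These are 0.118 to 0.14% of the sites in a list, so longer lists held more of them. With each list limited to its strongest 34644 regions, the counts ran from 38 (PRT4165) to 48 (homeostasis and cultured control). At that length Plin2 had 11 sites at homeostasis and 6 to 10 in the other lists, and Pparg had 5 in the cultured distal memory list, 6 in the cultured control list and 1 to 3 in the other 8.

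**Figure D2:**
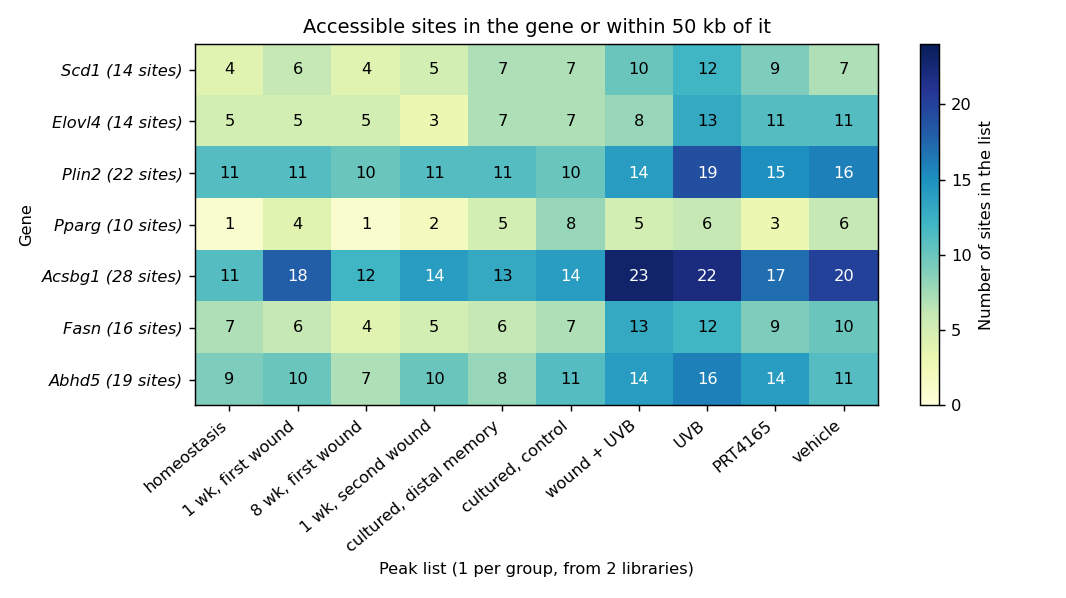
Rows are the 7 genes and columns the 10 peak lists, and each cell gives the number of accessible sites in the gene or within 50 kb. Acsbg1 reaches 23 sites in the wound with UVB list, and Pparg has 1 site at homeostasis and 1 at 8 weeks, against 8 in the cultured control list.

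Of the 123 sites, 28 were in all 10 lists, which is 22.8% (95% Wilson interval 16.2 to 30.9%) beside 18.8% of all sites. In a single list lay 16, or 13% beside 17.1%. All 8 lists from tissue that was not cultured, called fresh tissue here, held 37 sites, or 30.1% beside 25.5%, and the same 37 were the sites in all 4 lists of the wound course (25.7% of all sites). The 4 longest lists and no other held 6, or 4.88% beside 3.09%. The intervals cover counting error only, and neighbouring sites of a gene are not independent.

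By position, 5 sites lay at the start of the gene, 3 at its other or unassigned end, 28 inside it, 17 at or in a neighbouring gene and 70 between genes. Fasn lies among close neighbours, and 11 of its 16 sites were at or in Hmga1b, Rfng, Dus1l or Ccdc57. The strongest site of Elovl4 by rank, chr9:83834153-83835159, lies at an end of Ttk, and that of Plin2, chr4:86611460-86612494, at an end of Haus6. Both were in all 10 lists, at percentiles of 95.1 or higher. Sites near a gene were assigned by distance, and which gene they regulate was not tested.

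Of the 28 sites inside the 7 genes, 21 were absent from both cultured lists, 75.0% (56.6 to 87.3%). Over all member sites inside any gene, more than 1 kb from gene ends and off annotated starts, it was 28 of 36, or 77.8% (61.9 to 88.3%), beside 51.7% of all such sites of the series. Between genes it was 29 of 70, or 41.4% (30.6 to 53.1%), beside 47.6%, and over annotated starts 1 of 12, or 8.33% beside 9.57%. Of those 12 start sites, which include starts of neighbouring genes, 9 were in all 10 lists, 75.0% beside 69.2%. The 36 sites come from a small number of genes, Acsbg1 among them with 13. Of the 21 sites inside the 7 genes, 4 were in all 8 fresh-tissue lists. The others were missing from at least 1 fresh-tissue list as well.

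Pparg is the regulator among the 7. Its site chr6:115313117-115314011, 47.7 kb before the first start and nearer to Syn2, was in all 10 lists, with signal values of 9 to 16. It was the single Pparg site at homeostasis (13.7) and at 8 weeks (11.7). Inside the gene, chr6:115411310-115411922, 50.4 kb after the first start, was present 1 week after the first wound (8.19) and after the second wound (10.9). It also had 13.7 with wound and UVB, 11.6 with UVB, 9.81 with PRT4165 and 15.9 with vehicle, the last at percentile 86.4. It was missing at homeostasis, at 8 weeks and from both cultured lists. A second site inside the gene, chr6:115432333-115433036, was present in both cultured lists (8.21 distal memory, 8.74 control) and in both UVB lists (9.96 with wound, 7.06 without). The site chr6:115315805-115316355 was in the cultured lists alone, with 12.1 in the distal memory and 13.5 in the control list.

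Fasn sites outside the start stood at different ranks in different lists. At chr11:120775874-120776577, 48.3 kb past its start and nearest to Rfng, the signal value was 7.35 at homeostasis (percentile 29.9), 17.0 at 1 week (94.4) and 14.1 after the second wound (83.5). It had 20 with wound and UVB (89.8), 21.1 with UVB (95) and 9.18 with vehicle (51.1), and 9.26 and 9.48 in the cultured distal memory and control lists. No region was there at 8 weeks or with PRT4165. The site chr11:120853048-120853667 inside Ccdc57 was present at homeostasis (7.43), with wound and UVB (8.84), UVB (9.09), PRT4165 (7.49) and vehicle (7.44), and in no list after a wound alone or from culture.

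Around Scd1, the site chr19:44377675-44378770, 16.4 kb from the gene, was in 8 lists and missing at homeostasis and at 8 weeks. Its signal values were 8.79 and 8.4 at 1 week after the first and second wound, 10.5 and 8.59 in the cultured distal memory and control lists, and 7.21 to 12.2 in the other 4. The site chr19:44363323-44363958 differed from it by being absent after the second wound as well. In both UVB lists and in no other were chr19:44427429-44427734, with 8.98 with wound and UVB and 6.0 with UVB, and 1 weaker site.

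Of the 5 sites inside Elovl4, 4 were found in no list other than the 4 longest, and 1 of them was in all 4 of these. The site chr9:83797736-83798329, 8.2 kb after the start, had 11.1 with wound and UVB, 17.0 with UVB, 14.7 with PRT4165 and 11 with vehicle, up to percentile 86.2, and was in no other list. The site chr9:83781926-83782611, at 24 kb, was present in these 4, at homeostasis (7.85) and at 1 week (6.95), and missing at 8 weeks and after the second wound. The site chr9:83756449-83756962, beyond the far end, was in the cultured lists alone, with 17.6 in the distal memory and 15.1 in the control list, at percentiles of 91.7 and 84.0. The second-wound list held 3 Elovl4 sites, the fewest, and lacked chr9:83749815-83750835, which was in the 9 other lists with 9.3 to 20.3.

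**Figure D3:**
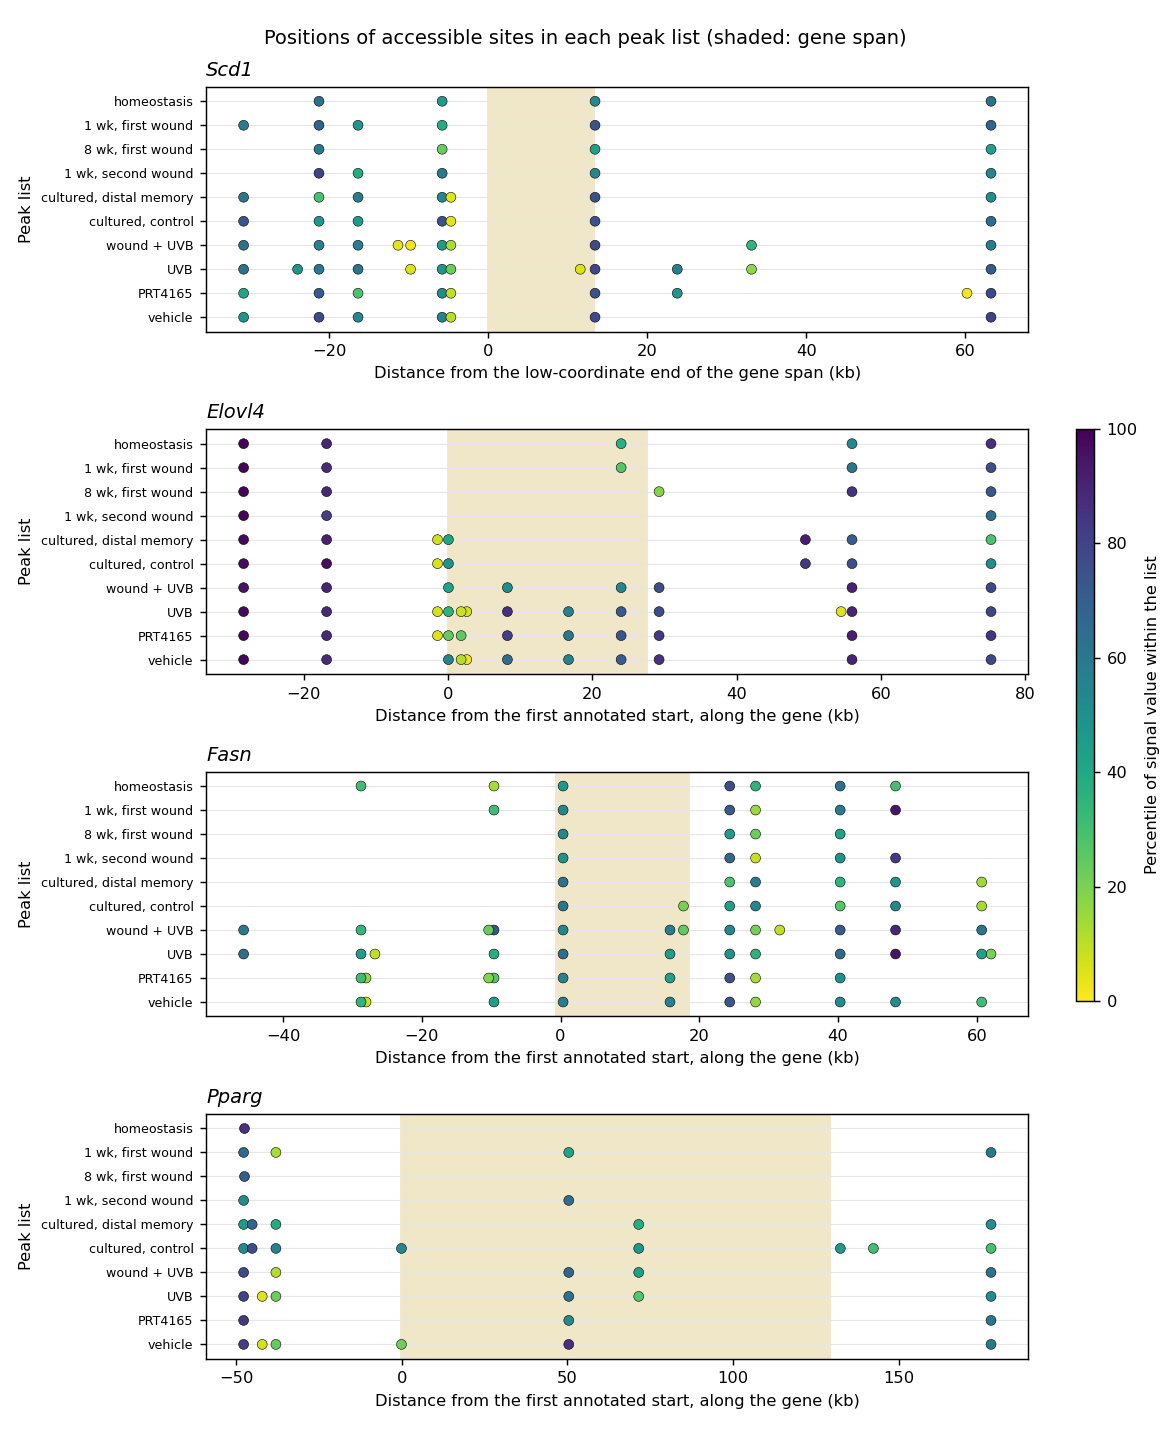
For Scd1, Elovl4, Fasn and Pparg, each row is a peak list and each dot a site, placed by its distance in kb from the first annotated start along the gene (for Scd1, from the low-coordinate end of the span), with the gene span shaded and colour for the percentile of signal value within the list. Columns of 10 dots are sites in every list, and the Pparg span holds no dot at homeostasis or at 8 weeks.

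Acsbg1 had 13 sites inside its 57.0 kb span. Of these, chr9:54612428-54613449 (9.12 to 15.1) and chr9:54642553-54643631 (6.48 to 10.6) were in all 10 lists, and chr9:54635292-54636252 (8.46 to 11.3) and 1 weaker site were in the 8 fresh-tissue lists and in neither cultured list. The site nearest to the uncovered start, chr9:54658676-54659137 at 2.9 kb after it, was present 1 week after the first wound (9.12, percentile 51.6), after the second wound (7.42, 27.3) and with wound and UVB (7.51, 23.0), and in no other list. It was 1 of 132 sites of the series with that pattern, 0.13% of all sites. Those 3 lists are also the fresh-tissue lists with regions at the Y-linked genes, so a wound and the presence of Y-linked regions cannot be told apart here.

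Before the Acsbg1 start, chr9:54682609-54683284 had 9.97 at 1 week and 7.66 after the second wound, and 21.5, 15, 13 and 11.3 in the wound with UVB, UVB, PRT4165 and vehicle lists. It was absent at homeostasis, at 8 weeks and from culture. The site chr9:54586134-54587280, at an end of Idh3a, was in all 10 lists and ranked highest in culture, with 22.0 in the distal memory list (percentile 98.1) and 20.3 in the control list (96.1).

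Abhd5 carried the highest-ranked sites inside any of the 7 genes. At chr9:122378733-122379670, 27.5 kb after the start, signal values were 18.9 at homeostasis, 17.0 at 1 week, 18.0 at 8 weeks and 19.5 after the second wound, and 30.3, 25.6, 20.8 and 23.2 in the wound with UVB, UVB, PRT4165 and vehicle lists, all at percentile 94.3 or higher. In the cultured distal memory and control lists it had 11.9 and 11.2, at percentiles of 67.5 and 65.5. At chr9:122364100-122364857, 12.9 kb after the start, the site was in all 8 fresh-tissue lists, with 10.2, 15.3, 10.3 and 12.4 over the wound course and 23.3, 23.0, 15.8 and 15.9 in the same 4 other lists. It was in neither cultured list. Downstream, chr9:122389188-122389700 was in the cultured lists alone, with 9.69 in the distal memory and 12.1 in the control list.

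Plin2 had a comparable exchange of sites. Inside the gene, chr4:86654303-86655058, 15.3 kb after the start, was in the 8 fresh-tissue lists with 9.19, 10.9, 11.5 and 14.2 over the wound course and 16.3, 17.6, 14.6 and 13.5 in the wound with UVB, UVB, PRT4165 and vehicle lists. Beyond the far end, chr4:86623454-86624271 was in the same 8 lists with 8.02 to 19.1. Neither was in a cultured list. The cultured lists alone held chr4:86674011-86675013, 4.1 kb from the gene on the start side, with 14.4 in the distal memory and 15.7 in the control list. They alone also held chr4:86634190-86635215 inside the gene, with 11.2 and 9.84 in the same order, and chr4:86622199-86622541.

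**Figure D4:**
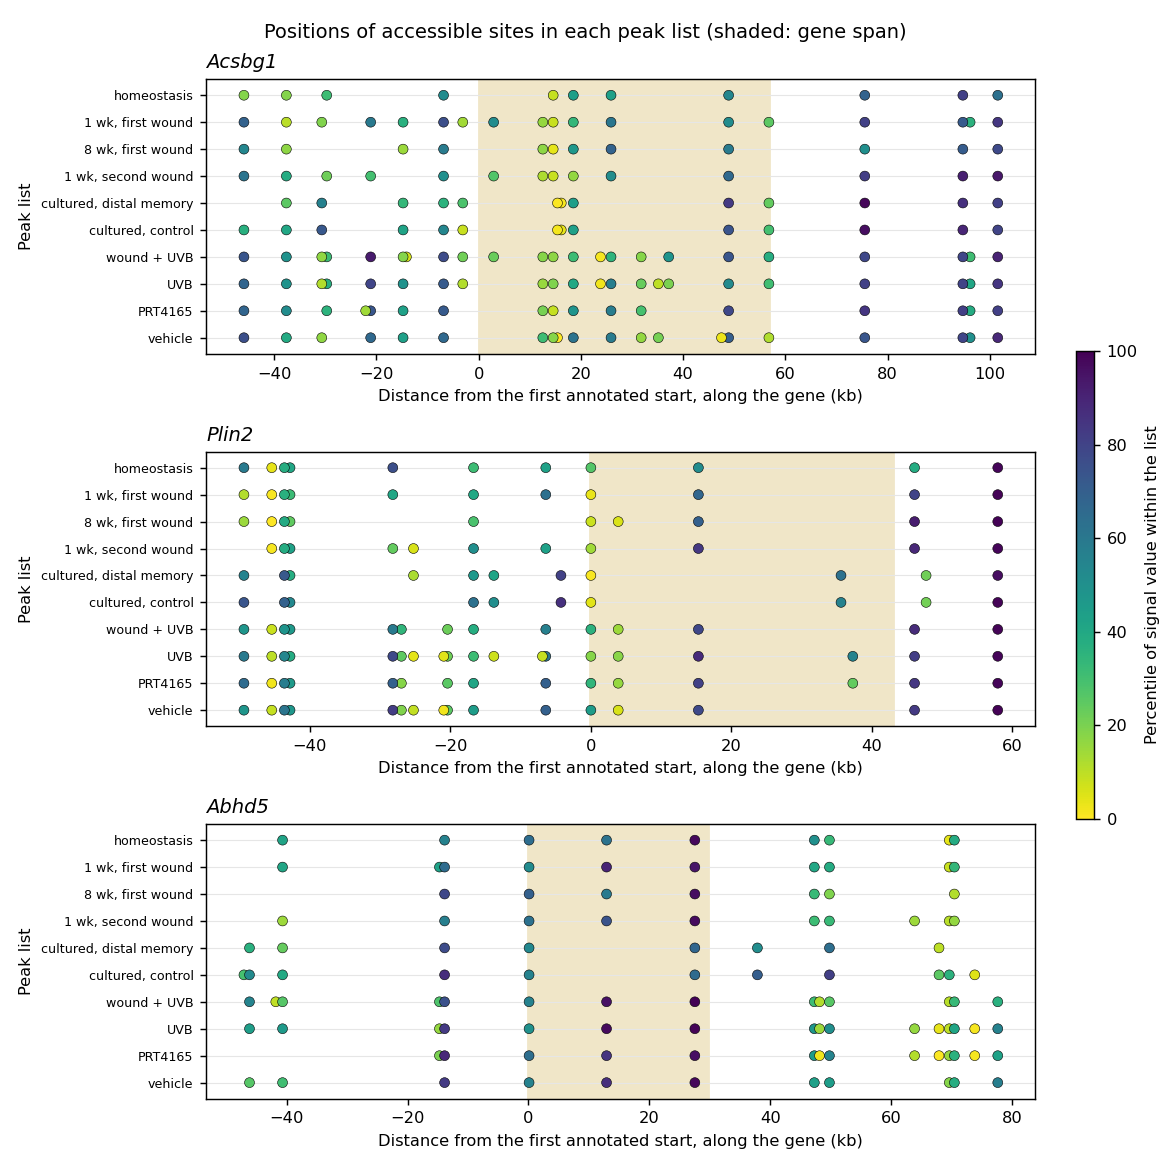
For Acsbg1, Plin2 and Abhd5, rows, dots, shading and colour follow the map of the other 4 genes, with distance in kb from the first annotated start along the gene. Within the Plin2 span the cultured rows lack the dot at 15.3 kb and have one at 35.6 kb, and within the Abhd5 span they lack the dot at 12.9 kb.

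Sites in all 8 fresh-tissue lists and in neither cultured list numbered 8, with 3 each at Plin2 and Abhd5 and 2 at Acsbg1. They are 6.5% of the sites beside 5.06% of all sites, and 21.6% (11.4 to 37.2%) of the 37 sites in all fresh lists beside 19.8%. Sites in both cultured lists and no fresh list numbered 7, or 5.69% beside 7.75%, with 3 at Plin2 and 1 each at Elovl4, Pparg, Acsbg1 and Abhd5. Scd1 and Fasn had neither kind. In bulk cells, fewer cells with an open site and a less open site in each cell cannot be told apart.

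The wound course asks what remains in these cells after an injury. A site counts as gained when it was in the first-named list and absent from the other, and as lost in the reverse case. Each share is set beside that of all sites of the series in the same list. One week after the first wound against homeostasis, 14 of the 60 sites were gained, 23.3% (14.4 to 35.4%) beside 32.9% of all sites, and 2 of the 48 at homeostasis were lost, 4.17% (1.15 to 14.0%) beside 5.89%. Acsbg1 had 8 gained and 1 lost, Pparg 3 and 0, Scd1 2 and 0, and Abhd5 1 and 0, while Fasn had 0 and 1, and Elovl4 and Plin2 neither. At equal list length, 9 of 47 were gained, 19.1% beside 23.4% of all sites, and 10 of 48 lost, 20.8% beside 22.1%. The 1-week list has regions at the Y-linked genes where the homeostasis list has none.

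Against homeostasis, 8 weeks after the first wound, 4 of 43 sites were gained, 9.3% (3.68 to 21.6%) beside 17.6%, and 9 of 48 were lost, 18.8% (10.2 to 31.9%) beside 18.6%. Fasn lost 3, Plin2 had 1 gained and 2 lost, Abhd5 lost 2, Acsbg1 had 2 gained and 1 lost, Elovl4 1 and 1, and Scd1 and Pparg neither. Missing at 8 weeks but present at homeostasis and at both 1-week times were 5 sites, 4.07% beside 3.15%, with 2 at Plin2, 2 at Abhd5 and 1 at Fasn. Among them were chr4:86676012-86676718 at Plin2 (8.35 at homeostasis, 10.5 at 1 week and 8.77 after the second wound) and chr9:122310554-122311711 at Abhd5 (8.34, 8.17 and 6.32 in the same lists). In the opposite pattern, 4 sites were present at both 1-week times and missing at homeostasis and 8 weeks, 3.25% beside 4.45%: the 2 Acsbg1 sites named above, the Pparg site inside the gene and the Scd1 site at 16.4 kb. Regions at the Y-linked genes are split over these lists in the same way.

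One week after the second wound against homeostasis, 7 of 50 sites were gained, 14.0% (6.95 to 26.2%) beside 27.2%, and 5 of 48 were lost, 10.4% (4.53 to 22.2%) beside 12.5%. Acsbg1 gained 3 and lost none, Elovl4 and Fasn lost 2 each and gained none, and the others had 1 gained and at most 1 lost. At equal list length, 4 of 39 were gained, 10.3% beside 22.9%, and 13 of 48 lost, 27.1% beside 21.9%. The second-wound list also has regions at the Y-linked genes where the homeostasis list has none. Against the first wound at the same time, the second wound had 3 of 50 gained, 6.0% (2.06 to 16.2%) beside 9.78%, and 13 of 60 lost, 21.7% (13.1 to 33.6%) beside 22.6%, 5 of them at Acsbg1.

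PRT4165 against vehicle asks what blocking the PRC1 ligase does to these loci. Of 78 sites with PRT4165, 12 were gained, 15.4% (9.03 to 25.0%) beside 11.3%, and of 81 with vehicle 15 were lost, 18.5% (11.6 to 28.3%) beside 13.7%. Abhd5 had 5 gained and 2 lost, Scd1 2 and 0, Acsbg1 2 and 5, and Pparg 0 and 3. The Pparg losses include its first start site and chr6:115322405-115323501, which had 6.41 with vehicle. With lists of equal length there were 3 of 38 gained, 7.89% beside 10.7%, and 7 of 42 lost, 16.7% beside 10.7%. At Scd1, chr19:44417999-44418426 had 9.28 with PRT4165, no region with vehicle and 10.7 with UVB.

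UVB against vehicle gave 23 of 100 sites gained, 23.0% (15.8 to 32.2%) beside 16.1%, and 4 of 81 lost, 4.94% (1.94 to 12.0%) beside 11.6%. Scd1 and Abhd5 gained 5 each and lost none, Acsbg1 had 4 and 2, Plin2 3 and 0, Fasn 3 and 1, Elovl4 2 and 0, and Pparg 1 and 1. At equal list length, 5 of 39 were gained, 12.8% beside 14.6%, and 8 of 42 lost, 19% beside 14.4%. Both shares then lay on the other side of those of all sites. Both UVB lists and no other held 5 sites, 4.07% (1.75 to 9.16%) beside 1.52%, with 2 at Scd1, 2 at Acsbg1 and 1 at Fasn, chr11:120869932-120870445 (12.6 with wound and UVB, 11.9 with UVB). Wound with UVB against UVB had 7 of 87 gained, 8.05% (3.95 to 15.7%) beside 10.1%, and 20 of 100 lost, 20% (13.3 to 28.9%) beside 19.3%, with 5 lost each at Elovl4 and Plin2 and 3 gained at Fasn. At equal list length, 10 of 43 were gained, 23.3% beside 13.7%, and 6 of 39 lost, 15.4% beside 13.8%. The wound with UVB list has regions at the Y-linked genes and the UVB list has none there.

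In culture, distal memory cells against control cells had 1 of 57 gained, 1.75% (0.31 to 9.29%) beside 7.53%, and 8 of 64 lost, 12.5% (6.47 to 22.8%) beside 22.1%. The gained site was chr4:86694983-86695420 at Plin2, with 5.88 at percentile 12.5, and Pparg and Abhd5 lost 3 each. Cultured control cells against vehicle had 17 of 64 gained, 26.6% (17.3 to 38.5%) beside 31.3%, and 34 of 81 lost, 42.0% (31.8 to 52.8%) beside 46.6%. Plin2 had 4 gained and 10 lost, Acsbg1 2 and 8, Elovl4 2 and 6, Abhd5 4 and 4, Pparg 4 and 2, Fasn 1 and 4, and Scd1 neither. The labels of these groups differ in more than culture. The cultured names give 8 weeks after the first wound, and the vehicle epidermis is not labelled as wounded. The cultured control list also has regions at the Y-linked genes, and the vehicle list has none there. At equal list length, 22 of 48 were gained, 45.8% beside 41.1%, and 16 of 42 lost, 38.1% beside 41.2%.

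Vehicle against homeostasis compares epidermis that is not labelled as wounded in either group. Here 34 of 81 sites were gained, 42.0% (31.8 to 52.8%) beside 50.3%, and 1 of 48 was lost, 2.08% (0.369 to 10.9%) beside 1.07%. At equal list length, 10 of 42 were gained, 23.8% beside 26.5%, and 16 of 48 lost, 33.3% beside 25.1%. With vehicle in place of homeostasis, 3 of 60 sites were gained and 24 of 81 lost in the 1-week first-wound list. In the 8-week list these were 0 of 43 and 38 of 81, and in the second-wound list 3 of 50 and 34 of 81. The share over all sites was not counted with vehicle as reference for these lists. The vehicle list has 70008 regions, and these lists have 49078, 34644 and 42200 in the same order. The part of list length in these losses was not tested. The comparisons with homeostasis share that list, as those with vehicle share theirs.

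**Figure D5:**
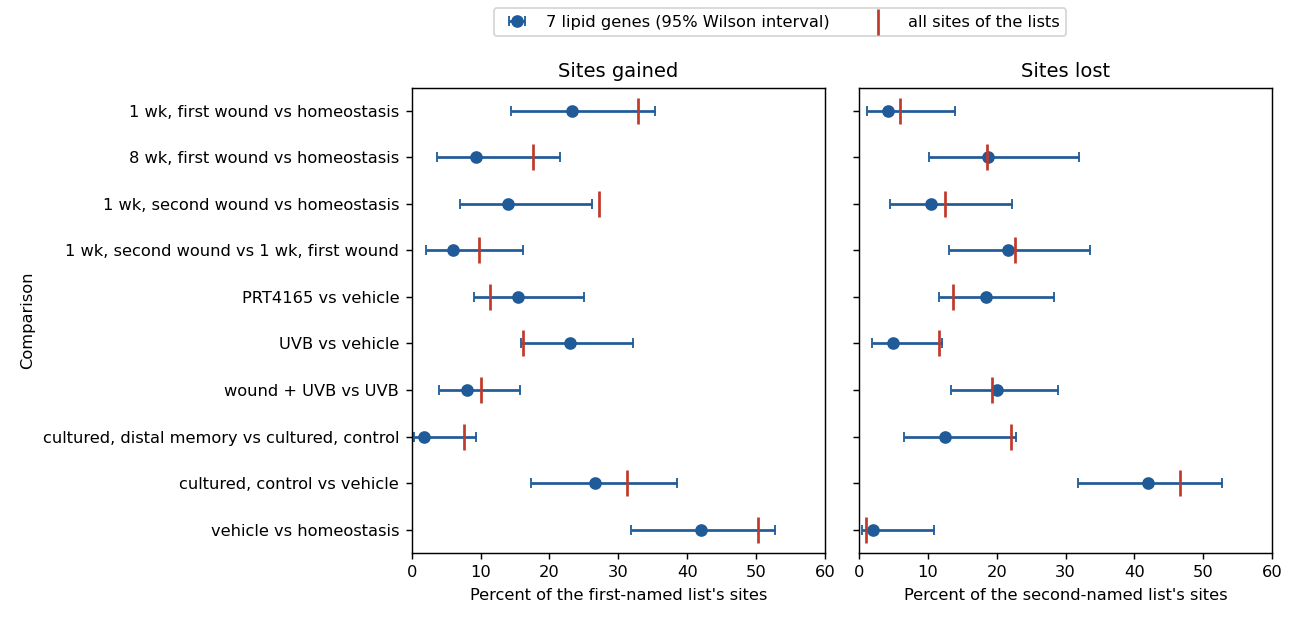
For each of 10 comparisons, the left panel gives the percent of the first-named list's sites that were gained and the right panel the percent of the second-named list's sites that were lost, with blue points and 95% Wilson intervals for the 7 genes and red ticks for all sites of the lists. The red tick lies outside the interval in 1 of the 20 cases, the sites gained 1 week after the second wound against homeostasis (14.0% beside 27.2%).

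Other genes of sebum and lipid metabolism were counted as well, 50 in number, with 646 sites. Regions within 1 kb of an end were present at 33 of them at homeostasis, 40 at 1 week, 33 at 8 weeks and 38 after the second wound, 38 and 40 in the cultured distal memory and control lists, and 41, 44, 39 and 41 in the wound with UVB, UVB, PRT4165 and vehicle lists. By the same measure 47.9% (8 weeks) to 60.1% (UVB) of all protein-coding genes had a region. Of 20 genes of fatty acid and sterol synthesis, 15 had a region in every list, as had 6 of 11 of wax and triglyceride synthesis, 3 of 8 of droplets and lipolysis, and 6 of 11 sebocyte regulators and markers. Awat1, Dgat2l6, Far2 and Gpam had none in any list. The share of all protein-coding genes with a region in every list, or in none, was not counted by this measure. For annotated starts, an unlike measure, these shares were 40.5% and 41.1%.

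Single genes of these groups varied with the lists. Mgll, which encodes monoglyceride lipase, and Scd3, a desaturase of the Scd family, had a region at an end in the 8 fresh-tissue lists and in neither cultured list. The reverse was seen at Lipe, with one in both cultured lists and in no fresh-tissue list. Fads2, Elovl6 and Soat1 had one in both cultured lists and otherwise with UVB alone, with UVB and vehicle, and with UVB and PRT4165, respectively. The share of all genes with such patterns was not counted. Krt79, a keratin of the upper follicle duct, and Cidea, a lipid droplet protein, had one in 6 lists and lacked it at homeostasis, at 8 weeks and in culture. G0s2, an inhibitor of the lipase Pnpla2, had one in the 2 UVB lists.

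Around the 50 genes, sites were counted as gained or lost in the same way. One week after the first wound against homeostasis, 119 sites were gained and 15 lost (35.4% and 6.47%, beside 32.9% and 5.89% of all sites). At 8 weeks it was 46 and 40 (19.3% and 17.2%, beside 17.6% and 18.6%), and after the second wound 92 and 23 (30.6% and 9.91%, beside 27.2% and 12.5%). Vehicle against homeostasis, neither labelled as wounded, gave 238 and 6 (51.3% and 2.59%, beside 50.3% and 1.07%). The largest balance at 1 week was at Cebpb and Rxra, transcription factor genes with 7 gained and 1 lost each, and 6 genes, Scd2, Scd3, Elovl3, Insig1, Far1 and Far2, had no site gained or lost. At 8 weeks the highest were Agpat2 and Elovl7 with 3 gained and 0 lost each, and the lowest Prdm1 with 0 and 3 and Cebpb with 2 and 4.

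PRT4165 against vehicle gave 42 gained and 59 lost around these genes (9.4% and 12.7%, beside 11.3% and 13.7%), highest at Cebpa with 3 and 0 and lowest at Mgll with 0 and 5. UVB against vehicle gave 68 and 43 (13.9% and 9.27%, beside 16.1% and 11.6%), highest at Dgat1, a triglyceride synthase gene, with 6 and 0, and lowest at Mgll with 1 and 6. Cultured control against vehicle gave 84 and 206 (24.6% and 44.4%, beside 31.3% and 46.6%), lowest at Mgll with 0 and 16. Distal memory against control cells in culture gave 14 and 72 (4.93% and 21.1%, beside 7.53% and 22.1%), lowest at Dgat1 with 0 and 7.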

How the data were processed

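The 20 ATAC-seq libraries were made from sorted cells lysed and cut with Tn5, per the labels' protocols, and the build was mm10, per the submitters' processing notes. Read depth, Tn5 shift, peak caller and aligner are not given here in the sources used. The authors deposited 1 peak list per group, made from both libraries, with names that say conservative IDR (reproducibility) peaks. Each peak has the authors' score, the authors' signal value of enrichment, and the deposited −log10 p values, 2.0 or higher. The signal value was used to rank regions within a list, since lists were made separately, and the other values were not used.

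Overlapping peaks of a list were joined to regions on chromosomes 1 to 19, X and Y, where the strongest peak gave the signal value, and regions overlapping by 1 bp or more across the 10 lists were joined to sites. Gene spans and starts came from RefSeq tables for GRCm38.p6. Of the 7 genes, 6 matched the table of start regions. The span table gives no strand or exons, so exons, introns and UTRs were not separated. Without values per library, replicates could not be compared and no test was run. Shares have Wilson 95% intervals, which cover counting error only. Overlap counts were tested on simulated lists. Sites named are those at gene starts, the highest-ranked per gene, and up to 3 gained or lost per gene, and others were named after their values were seen. The members, gene lists and motifs were chosen with earlier results of these data known. Alternatives were other distances, nearest gene, vehicle as control, 50% overlap, equal list length and the stronger 50% of the regions. Python 3.11.15, numpy 2.4.6, pandas 2.3.3, scipy 1.17.1 and matplotlib 3.10.9 were used.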

Additional observations from a re-analysis of the deposited data

How the results depend on the processing

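Of 146 percentages recomputed under the alternatives, 106 stayed inside the counting interval of the value in the report and 40 left it, and 11 of 73 differences of gained minus lost sites turned their sign. With lists of equal length (34644 regions), lost sites became 20.8% at 1 week and 27.1% after the second wound against homeostasis, 33.3% for vehicle against homeostasis and 19% for UVB against vehicle. Gained sites became 7.89% for PRT4165 and 12.8% for UVB against vehicle, 23.3% for wound with UVB against UVB, 45.8% for cultured control against vehicle and 23.8% for vehicle against homeostasis. Gained minus lost became -1 at 1 week, -9 after the second wound, -3 for UVB, 4 for wound with UVB, 6 for cultured control and -6 for vehicle against homeostasis, all with the other sign in the full lists. This alternative keeps the strongest regions of each list by signal value. It cuts vehicle, with 70008 regions, harder than homeostasis, with 35195, and leaves near equal shares of all sites gained and lost. Scd1 then had 7 sites and Fasn 10.

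With the strongest 50% of each list, gained and lost were 28.0% and 25.0% for the second wound against homeostasis, 14.3% and 16.3% for UVB against vehicle, with a difference of -1, and 44.4% and 53.5% for cultured control against vehicle. Gained was 7.89% for PRT4165, lost was 27.8% for distal memory against control, and 13.2% of sites were in all lists. Site counts became 7 for Scd1, 14 for Plin2, 6 for Pparg, 13 for Acsbg1, 9 for Fasn and 9 for Abhd5.

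Within 20 kb, 0.0% were lost at 1 week and for vehicle against homeostasis, and 0.0% gained for the second against the first wound and for distal memory against control. The same values held within the gene span and 1 kb, and the losses were 0.0% also with the nearest gene alone. At 8 weeks the difference became 1 both within 20 kb and within 1 kb. Within 1 kb, lost was 8.33% at 8 weeks, 12.5% for the second against the first wound and 59.3% for cultured control, and gained was 4.55% for PRT4165 and 55.6% for vehicle against homeostasis. With the nearest gene alone, cultured control lost 52.9%. Within 20 kb, sites numbered 9 for Scd1, 9 for Elovl4, 13 for Plin2, 5 for Pparg, 8 for Fasn and 9 for Abhd5. Within 1 kb they were 2, 6, 5, 3, 3 and 3 for these genes and 14 for Acsbg1.

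With vehicle in place of homeostasis, gained and lost were 5.0% and 29.6% at 1 week (a difference of -21), 0.0% and 46.9% at 8 weeks, and 6.0% and 42.0% after the second wound (-31). The share over all sites was not counted for this reference. With 50% overlap of both regions, 17.6% were lost at 1 week. No paired analysis was possible because each list pools both libraries of its group, and for the same reason no replicate could be left out. Differences of a few sites lie within counting error, and a region absent from a list may lie just under the authors' threshold, since depth is unknown.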
